A study of Mus musculus with 2 samples.

Results

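The Shc adaptor genes Shc1, Shc2, Shc3 and Shc4 were followed in hippocampal Cajal-Retzius (CR) cells, the early-born Reln-expressing neurons of the hippocampal fissure. They are 4 of the 32285 genes in the files and were taken by symbol. The family was chosen by values of these same libraries, the difference of Shc3 between the genotypes and between knockout cells with and without an Etv4 or Etv5 transcript. Both differences are therefore given as descriptions, without a test. The study asked what the transcriptional repressor Capicua (Cic) does in CR cells. One single-cell RNA-sequencing library was made per genotype at postnatal day 14. The control library held cells of 4 mice, 3 males and 1 female, of genotype ΔNp73-Cre; Cic flox/+; tdT, pooled, which carry 1 floxed and 1 unfloxed Cic allele. The knockout library held the pooled cells of 4 littermates, 2 males and 2 females, of genotype ΔNp73-Cre; Cic flox/flox; tdT. Both groups carried the Cre driver and the tdT (tdTomato) reporter, and live tdT+ cells were sorted from dissected hippocampi. Cre under ΔNp73 reaches CR cells of the hem lineage, and the control is thus a heterozygote, not a wild type.

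Shc proteins are adaptors without catalytic activity. They bind phosphorylated tyrosines of activated receptors through a PTB and an SH2 domain, become phosphorylated themselves on tyrosines of the stretch between these domains, and then recruit Grb2, which brings Sos to Ras and starts the ERK cascade. Shc1 is found in most tissues, Shc2 and Shc3 mainly in neurons, and Shc4 was described as an adaptor of the muscle receptor MuSK. Etv4 and Etv5 encode ETS transcription factors that act downstream of this cascade and are known targets of repression by Cic.

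The phosphorylation sites through which the family binds Grb2 are shown because all 4 members share them while their RNA levels behaved differently here. Each line gives 45 coding bases, read 5′ to 3′ on the coding strand of the GENCODE M21 transcripts on GRCm38. Capitals mark the codons for tyrosine, tyrosine and asparagine in the first set and for tyrosine, valine and asparagine in the second. The stretches lie in single exons, in the first set at chr3:89426558-89426602 (+) for Shc1, chr10:79626336-79626380 (-) for Shc2, chr13:51451556-51451600 (-) for Shc3 and chr2:125655648-125655692 (-) for Shc4.
Shc1: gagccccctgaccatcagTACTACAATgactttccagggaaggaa
Shc2: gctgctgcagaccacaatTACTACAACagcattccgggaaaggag
Shc3: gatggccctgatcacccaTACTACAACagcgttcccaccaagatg
Shc4: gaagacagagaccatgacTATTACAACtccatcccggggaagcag
The second set lies at chr3:89426947-89426991 (+) for Shc1, chr10:79623900-79623944 (-) for Shc2, chr13:51447954-51447998 (-) for Shc3 and chr2:125649210-125649254 (-) for Shc4.
Shc1: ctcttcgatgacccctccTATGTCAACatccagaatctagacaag
Shc2: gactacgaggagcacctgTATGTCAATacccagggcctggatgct
Shc3: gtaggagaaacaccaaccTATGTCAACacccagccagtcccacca
Shc4: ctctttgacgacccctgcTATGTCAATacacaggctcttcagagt
Each codon triplet occurred 1 time in the coding sequence of every member. Between pairs of members, 49.0% (Shc2 and Shc4) to 60.5% (Shc1 and Shc3) of aligned residues were identical. The longest run of bases shared between the transcripts of a pair was 26, in Shc1 and Shc3 and in Shc3 and Shc4, so the members can be told apart by longer reads.

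CR cells were taken as barcodes with at least 2000 UMIs (unique molecular identifiers, 1 per captured RNA molecule) and at least 5 Reln UMIs. This gave 1003 control cells, with 2012 to 31769 UMIs and a median of 6224, and 390 knockout cells, with 2769 to 33453 UMIs and a median of 6664. All 8 CR marker genes were detected in 25% or more of the cells in each library. Their summed level was 14104 UMIs per 1000000 (CPM) in control and 13569 CPM in knockout cells. Reln is 1 of the 8 and also defines the cells, so its detection was fixed by the rule and its UMIs are part of the sum. The lists of astrocytes, of oligodendrocytes and precursors, and of endothelial and mural cells each had 1 gene in 25% or more of the cells in each library. The summed level of 6 other lists ranged from 2.88 (GABAergic neurons) to 133 CPM (astrocytes) in control and from 1.81 to 119 CPM in knockout cells. No cell barcode was shared between the libraries. Cic itself, the targeted gene, had 389 UMIs in control and 142 in knockout cells, a ratio of knockout over control of 0.871 (0.714 to 1.06). A 3′ count does not report whether the floxed exons are present. By immunostaining of slightly older mice of this line, the paper found CIC lost from most but not all hippocampal CR cells. The knockout library may thus include cells that keep CIC, and these counts do not tell which. With 1 library per genotype no difference between genotypes can be tested, and genotype cannot be told apart from library, pool or sex ratio. Every interval below is an exact 95% interval of the counts and covers counting error only.

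Shc3, on chromosome 13 (GRCm38 chr13:51431041-51569419, - strand), had almost no RNA in control cells and was among the genes with the highest ratios in knockout cells. It had 5 UMIs in the 1003 control cells, 0.757 CPM (0.246 to 1.77), and 98 UMIs in the 390 knockout cells, 35.4 CPM (28.8 to 43.2). The intervals of the levels did not overlap, which belongs to the contrast that chose the family and is not a test. The share of all genes with intervals apart was not counted. The ratio was 46.8 (19.4 to 147), a log2 ratio of 5.55 where the median over all genes was 0.01. Among the 9442 genes with at least 100 UMIs over both libraries, Shc3 had the third highest ratio, after the noncoding transcripts 9630014M24Rik and Gm5820. Of these genes, 2.73% were at least 1.5-fold higher and 1.66% at least 1.5-fold lower in knockout cells. Shc2 and Shc3 reached 100 UMIs, Shc3 only through its knockout counts, and Shc1 (96 UMIs) and Shc4 (44 UMIs) did not. Because the genes were chosen by this contrast, nothing is read from 1 of the 4 lying above 1.5-fold.

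The other members did not differ between the libraries beyond counting error. Shc1, on chromosome 3 (chr3:89418443-89430027, + strand), the member with the broadest known expression, had 63 UMIs and 9.54 CPM (7.33 to 12.2) in control cells and 33 UMIs and 11.9 CPM (8.21 to 16.8) in knockout cells. Its ratio was 1.25 (0.795 to 1.93). Shc2, on chromosome 10 (chr10:79618051-79637918, - strand), had 113 UMIs and 17.1 CPM (14.1 to 20.6) in control and 49 UMIs and 17.7 CPM (13.1 to 23.4) in knockout cells. Its ratio of 1.03 (0.725 to 1.46) was the closest to 1 in the family, and the interval leaves out a change of 1.5-fold in either direction. Shc4, on chromosome 2 (chr2:125627447-125724148, - strand), had 29 UMIs and 4.39 CPM (2.94 to 6.31) in control and 15 UMIs and 5.42 CPM (3.04 to 8.94) in knockout cells. Its ratio was 1.23 (0.615 to 2.38), so a change of up to that size was not detectable at this depth. Levels are compared between libraries for 1 gene at a time, since capture at the 3′ end differs between genes.

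**Figure D1:**
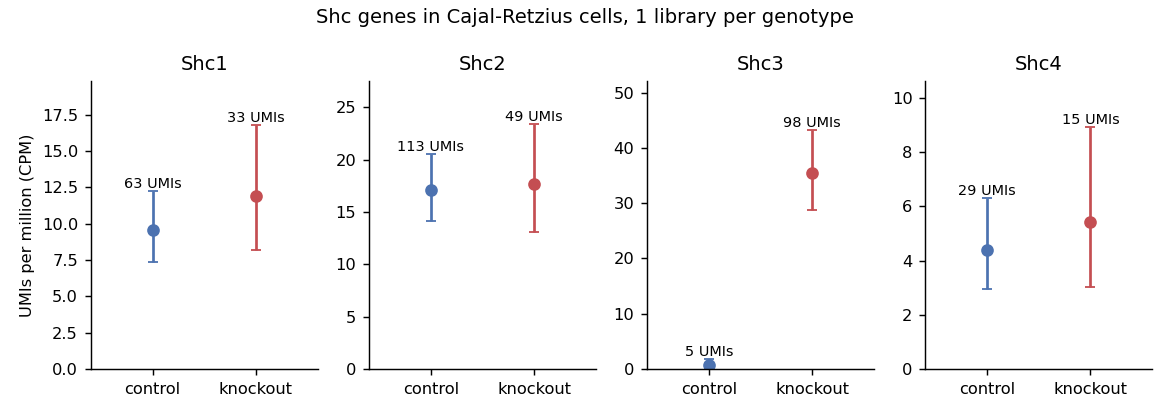
Level of each Shc gene in CPM (y axis from 0, a scale of its own in each panel) in the control library (blue, 1003 cells) and the knockout library (red, 390 cells). Points are library totals and bars exact 95% Poisson intervals. For Shc3, by which the family was chosen, the bars lie apart, at 0.757 and 35.4 CPM, and for Shc1, Shc2 and Shc4 they overlap.

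Annotation limits touch these values. The RefSeq model of Shc3 runs 7652 bases past the 3′ end of the GENCODE model, against 2, 117 and 8 bases for Shc1, Shc2 and Shc4, and whether reads of that stretch were counted is not given in the sources used here. Eid1, on the opposite strand, lies within the span of Shc4 (706 control and 297 knockout UMIs), and Gm47163 overlaps the start of Shc2 (9 and 11 UMIs). Gm47163, like Eid1, lies on the strand opposite to its Shc gene, so reads of these pairs can be told apart where counting keeps the strand. The strand setting is not given in the sources used here, and whether reads were exchanged within these pairs was not tested.

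Among single cells, Shc3 was detected in a minority of the knockout cells. A UMI of Shc3 was found in 5 of 1003 control cells, 0.499% (0.162 to 1.16), and in 68 of 390 knockout cells, 17.4% (13.8 to 21.6). With each cell reduced to 2000 UMIs, the expected shares were 0.142% and 6.03%. In the knockout library 48 cells held 1 UMI, 14 held 2, 3 held 3, 2 held 4 and 1 held 5, so the richest cell gave 5.10% of the Shc3 UMIs. In the control library each of the 5 cells held 1. For Shc1, Shc2 and Shc4 no cell of either library held more than 2 UMIs. Shares for these members were 5.98% and 7.69% (Shc1), 10.3% and 11.5% (Shc2), and 2.69% and 3.33% (Shc4) of control and knockout cells, with overlapping intervals. Shc3 was found together with Shc1 in 9, with Shc2 in 9 and with Shc4 in 3 knockout cells.

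Knockout cells differed among themselves by Etv4 and Etv5. A UMI of either was found in 162 knockout cells (41.5%, median 7266 UMIs per cell) and not in 228 (median 6210 UMIs), and in 87 control cells (8.67%). Shc3 had 84 UMIs in the knockout cells with an Etv UMI, 68.4 CPM (54.5 to 84.7), and 14 UMIs in those without, 9.11 CPM (4.98 to 15.3). The ratio was 7.51 (4.24 to 14.3). A Shc3 UMI was found in 34.6% (27.3 to 42.4) and 5.26% (2.75 to 9.01) of these cells, and in an expected 12.1% and 1.73% at 2000 UMIs per cell. Of the 68 knockout cells with Shc3, 56 thus held an Etv UMI and 12 did not. Among 7865 genes with at least 50 UMIs in knockout cells, Shc3 was the only member to pass, and only through its counts in cells with an Etv UMI. It had the sixth highest ratio, after Etv4 and Etv5, which define the split, and Gm29570, 1700034P13Rik and Prtg. Of the 7865 genes 5.35% were at least 1.5-fold higher and 4.35% at least 1.5-fold lower in cells with an Etv UMI. As this contrast also chose the family, these ranks are descriptions.

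The cells with an Etv UMI were then divided by the number of Etv UMIs and by the gene they came from. Their distance from cells with none is part of the contrast that chose the family, and only differences among the divided groups lie outside it. Shc3 was at 48.4 CPM (30.7 to 72.6) in 67 cells with 1 Etv UMI, 86.8 CPM (54.4 to 131) in 36 cells with 2 and 78.1 CPM (55.5 to 107) in 59 cells with 3 or more. Among themselves these levels did not differ beyond counting error (2 over 1, ratio 1.79, 0.954 to 3.37, and 3 or more over 1, ratio 1.61, 0.941 to 2.83). In cells with Etv4 but not Etv5 (46 cells) Shc3 was at 69.1 CPM (44.7 to 102), in cells with Etv5 but not Etv4 (56 cells) at 49.1 CPM (29.1 to 77.7), and in cells with both (60 cells) at 81.9 CPM (58.8 to 111). The intervals of these 3 levels overlapped.

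**Figure D2:**
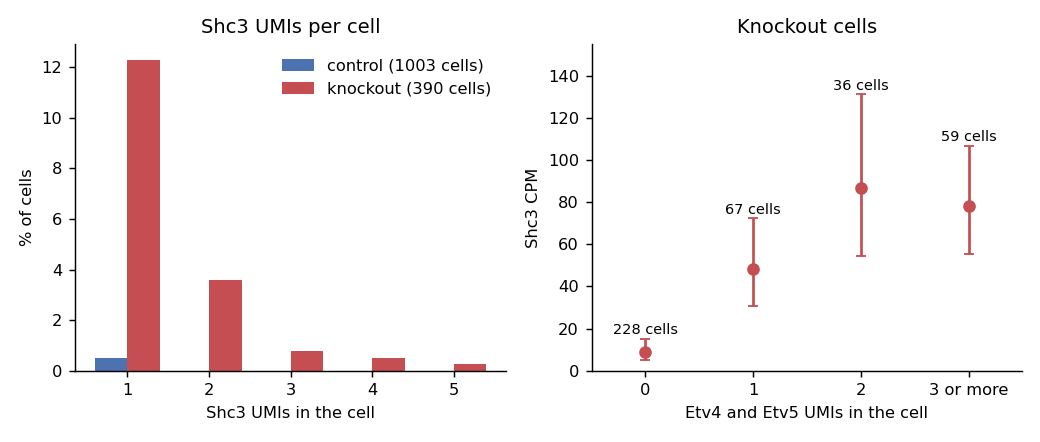
Left, percent of control (blue) and knockout (red) cells with 1 to 5 Shc3 UMIs; all 5 control cells with Shc3 held 1 UMI and knockout cells held up to 5. Right, Shc3 level (CPM) in knockout cells with 0, 1, 2 or at least 3 UMIs of Etv4 and Etv5 together, as points with exact 95% Poisson intervals, rising from 9.11 CPM with 0 to 48.4 CPM or more with 1 or more.

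The other members did not differ beyond counting error in this split. In knockout cells with and without an Etv UMI, Shc1 had 15 and 18 UMIs (ratio 1.04, 0.489 to 2.19), Shc2 had 24 and 25 (1.20, 0.657 to 2.19) and Shc4 had 7 and 8 (1.10, 0.338 to 3.46). These counts leave changes of about the upper limits undetected. Within the cells with an Etv UMI, Shc1 had 2 UMIs where there was 1 Etv UMI and 10 where there were 3 or more (4.21 and 20.0 CPM, ratio 4.76, 1.01 to 44.7), while cells with none were at 11.7 CPM, so its levels did not follow the order of Etv UMIs. Control cells with an Etv UMI did not show Shc3 at the knockout level. They held 1 Shc3 UMI in 87 cells, 1.498 CPM (0.0379 to 8.35), and the 916 control cells without held 4, 0.674 CPM (0.184 to 1.73). Ratios of knockout over control within these groups are given as parts of the contrast that chose the family. Within cells with an Etv UMI the ratio was 45.7 (7.97 to 1824), on 1 control UMI, and within cells without it was 13.5 (4.24 to 56.4). Of the 87 control cells 67 held only 1 Etv UMI, while 95 of the 162 knockout cells held at least 2, so these groups are not alike. Detection of Etv4 or Etv5 at this depth misses cells, so a cell without a UMI is not a cell without the RNA.

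RNA outside cells was set beside these values. In 75813 knockout droplets of 20 to 100 UMIs Shc3 was at 11.2 CPM, inside the interval of the knockout cells without an Etv UMI (9.11 CPM, 4.98 to 15.3), with a ratio of those cells over droplets of 0.814 (0.403 to 1.56). All knockout cells together stood 3.17-fold above the droplets (2.12 to 4.83). These ratios compare composition, not amount. Knockout droplets held a median of 44 UMIs and knockout cells without an Etv UMI a median of 6210. A like CPM therefore does not tell whether the Shc3 UMIs of those cells are free RNA. The part of free RNA in their difference from control cells was not tested. Shc1 was at 7.80 and 13.8 CPM in control and knockout droplets, and its cells were not above them beyond counting error (ratios of cells over droplets 1.22, 0.707 to 2.23, and 0.863, 0.530 to 1.39). Shc2 was at 12.9 and 10.9 CPM in droplets, and its cells lay above them in the knockout library (1.63, 1.03 to 2.62) but not beyond counting error in the control library (1.33, 0.874 to 2.09). Shc4 was at 11.02 and 8.23 CPM, and in the control library its cells lay below the droplets (ratio 0.399, 0.224 to 0.716). A like CPM in cells and droplets does not tell whether the UMIs of Shc1, Shc2 and Shc4 in cells are free RNA. Droplets held a median of 89 UMIs in the control and 44 in the knockout library, against 6224 and 6664 in cells. In an alternative, 10% of the UMIs of the cells were assumed to be free RNA with the composition of the droplets, and were subtracted. Ratios of knockout over control were then 1.20 (Shc1), 1.05 (Shc2), 1.40 (Shc4) and 48.2 (Shc3), and Shc3 by Etv was 8.42. The true share of free RNA was not measured.

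Sex of the cell gives the only split of each pool by animal that the files hold. Cells were called female from Xist without a Y-linked UMI and male from Y-linked UMIs without Xist, which gave 223 female and 702 male control cells and 175 female and 194 male knockout cells. All 5 control Shc3 UMIs were in male cells (1.07 CPM, 0.346 to 2.49), and 0 were found in the 223 female cells, with an exact upper limit of 2.59 CPM. Knockout male cells held 49 UMIs, 34.3 CPM (25.4 to 45.3), and knockout female cells 42, 34.4 CPM (24.8 to 46.5). As a part of the contrast that chose the family, the ratio of knockout over control was 32.2 (12.9 to 104) in male cells. In female cells it was 16.3 with the control count of 0 set to 3, a value that leaves out counting error of the 42 knockout UMIs. Both sexes of the knockout pool thus held Shc3, with a ratio of female over male of 1.00 (0.649 to 1.55). The split by Etv, given as parts of the chosen contrast, stood at 72.8 and 7.16 CPM in male cells (ratio 10.2, 4.31 to 29.2) and 62.0 and 8.02 CPM in female cells (7.73, 3.03 to 25.2). For Shc2 the ratio of female over male control cells was 1.49 (0.947 to 2.29).

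**Figure D3:**
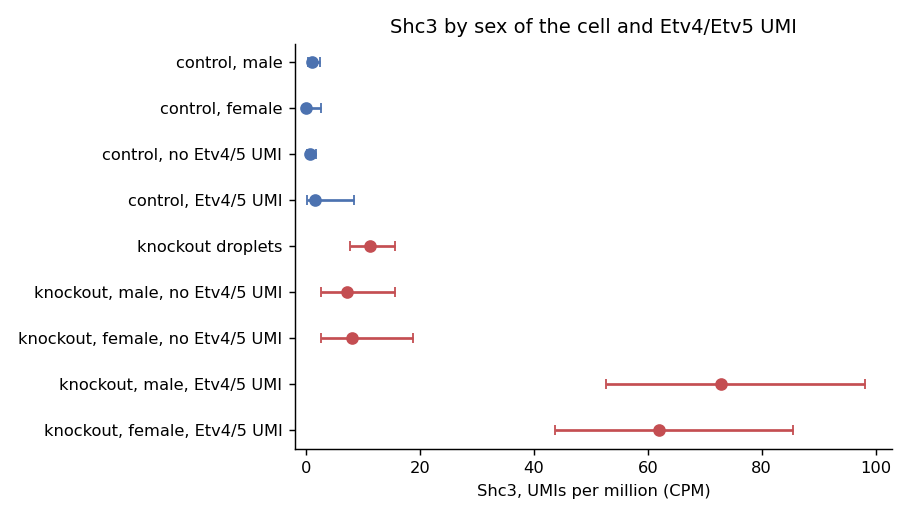
Shc3 level (x axis, CPM) in control cells (blue) by sex and by Etv4 or Etv5 UMI, in knockout droplets of 20 to 100 UMIs, and in knockout cells (red) by sex and Etv UMI. Points are sums over the cells of a group and bars exact 95% Poisson intervals; the knockout cells with an Etv UMI, at 72.8 CPM in male and 62.0 CPM in female cells, lie above every other group.

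Among knockout cells, Shc3 did not differ beyond counting error along the classes of CR cells marked by other genes. It was at 30.2 CPM in cells with and 37.6 CPM in cells without Cck, a neuropeptide gene (ratio 0.803, 0.485 to 1.29). With and without the kainate receptor subunit Grik1 it was at 44.7 and 33.2 CPM (1.35, 0.813 to 2.16), and with and without the GABA-A receptor subunit Gabrg3 at 38.0 and 31.4 CPM (1.21, 0.787 to 1.89). In the 29 cells whose UMIs were at least 2% from nuclear respiratory genes it was at 22.8 CPM, against 37.5 CPM in the rest (0.608, 0.269 to 1.21). The cut is a point on a range, with 11 knockout cells within 0.25 percentage points of it.

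Levels within ranges of depth, chosen after the data were seen, are given as parts of the contrast that chose the family. In cells of 4000 to under 8000 UMIs Shc3 was at 0.806 CPM in control and 31.8 CPM in knockout cells, and in cells of 8000 or more at 0.783 and 38.9 CPM. Barcodes on the outer side of the limits that define the cells were scarce. Those of 500 to under 2000 UMIs with a Reln UMI (147 control and 27 knockout) held 0 Shc3 UMIs. With each 0 set to 3 they would stand at 25.1 and 137 CPM, and the exact upper limit in the control barcodes was 30.8 CPM. Of barcodes with at least 2000 UMIs but fewer than 5 Reln UMIs, the 8 in the control library held 0 and the 16 in the knockout library held 3. The exact upper limit in these 8 was 100 CPM, so no difference is read from 0 against 3.

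Shc proteins dock to receptor tyrosine kinases, and genes past 1.5-fold with at least 100 UMIs were found in this list of the pathway and not in the other 4 lists. Of 20 receptors listed, 9 reached 100 UMIs, of which 3 were at least 1.5-fold higher and 1 at least 1.5-fold lower in knockout cells, where 2.73% and 1.66% of all genes were. The median log2 ratio of the 9 was 0.07. The 3 higher genes, Fgfr1 (44 control and 82 knockout UMIs), Alk (62 and 101) and Egfr (69 and 48), would not have reached 100 UMIs at their control level, so their count supports nothing about the list. Fgfr1, a receptor of fibroblast growth factors, went from 6.66 to 29.6 CPM (ratio 4.45, 3.05 to 6.57). Alk, the receptor of the Alkal ligands, went from 9.39 to 36.5 CPM (3.89, 2.81 to 5.42), and Egfr, the receptor of epidermal growth factor, from 10.5 to 17.4 CPM (1.66, 1.12 to 2.43). Ntrk3, the receptor of neurotrophin-3, was lower, at 32.9 and 15.9 CPM (0.484, 0.342 to 0.672). Within the knockout library, cells with an Etv UMI over those without had ratios of 3.02 (1.85 to 5.09) for Fgfr1, 2.47 (1.61 to 3.84) for Alk and 3.75 (1.91 to 7.93) for Egfr. Ntrk3, lower in the knockout library, had a ratio of 1.65 (0.871 to 3.16) in this split. Below 100 UMIs, and named after their values were seen, Erbb4 (15 control and 18 knockout UMIs, ratio 2.86, 1.36 to 6.11) had an Etv ratio of 0.358 (0.0857 to 1.14), and Fgfr4 (3 and 9 UMIs) had all 9 knockout UMIs in cells without an Etv UMI.

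Downstream partners with at least 100 UMIs had ratios within 1.5-fold. Of 9 genes around Grb2 and Ras, 8 reached 100 UMIs and 0 lay past 1.5-fold (median log2 ratio 0.04). Grb2, which binds phosphorylated Shc, was at 82.1 and 92.2 CPM (1.12, 0.964 to 1.31), and Sos1, the exchange factor that loads Ras, at 111 and 114 CPM (1.02, 0.895 to 1.17). The docking protein Gab1 was at 5.45 and 6.15 CPM on 53 UMIs (1.13, 0.594 to 2.06). All 10 genes of PI3K and Akt were counted and 0 lay past 1.5-fold (median -0.04). The same held for 11 of 24 other docking adaptors (median -0.14) and for 6 of 10 kinases, phosphatases and binding proteins of Shc (median 0.17), where the phosphatase Ptpn11 was at 37.3 and 41.9 CPM (1.13, 0.895 to 1.41). Over all 9442 genes the median was 0.01, with 2.73% at least 1.5-fold higher and 1.66% at least 1.5-fold lower. With so few genes past 1.5-fold, counts of 0 in lists of this size say nothing particular about these partners. With at least 1 UMI in each library in place of 100 in both, 10 of 61 pathway genes were at least 1.5-fold higher (6 receptors, 3 docking adaptors and 1 binding partner of Shc) and 2 lower, where 16.4% and 9.04% of all genes were.

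**Figure D4:**
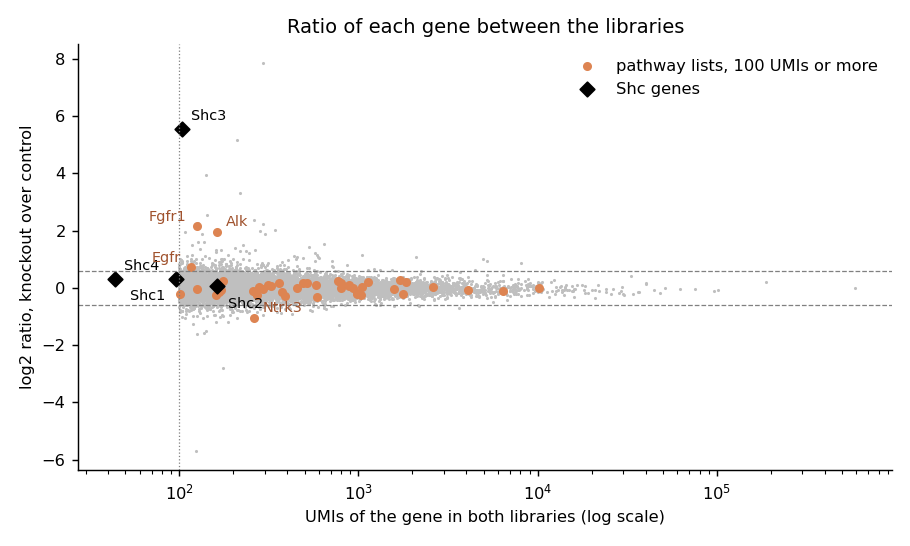
Log2 ratio of knockout over control (y axis) against the UMIs of a gene in both libraries (x axis, log scale) for genes of at least 100 UMIs with a UMI in each library (grey; dotted line at 100 UMIs), with genes of the pathway lists (orange) and the 4 Shc genes (black diamonds). Dashed lines mark 1.5-fold; Shc3 lies at 5.55, and Shc1, Shc2 and Shc4 lie between the dashed lines.

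Genes most like Shc3 were sought over 6 groups of cells (control male and female, and knockout male and female cells each with and without an Etv UMI), by the root mean square difference of centred log2(CPM + 1) among 9434 genes. The nearest were Gm5820 (0.447), Fgf1 (0.589), a fibroblast growth factor, C1ql1 (0.774), a secreted C1q-like synaptic protein, 9630014M24Rik (0.843) and the adhesion molecule Nrcam (1.06). The paper places Gm5820 and 9630014M24Rik in or next to the Fgf1 locus. Fgf1, for example, was at 2.77 and 2.81 CPM in control male and female cells, 19.1 and 12.8 CPM in knockout male and female cells without an Etv UMI, and 86.4 and 77.1 CPM in those with one. The groups follow the contrasts that chose the family, and they share libraries and depth. Genes high in the same knockout cells thus lie near Shc3 by construction, and this likeness is a description only. For Shc2, the 5 nearest genes (Mfsd1, Naa15, Plekha8, 6530409C15Rik and Spdya) lay at 0.0997 to 0.128, with a ratio of knockout over control between 0.939 and 1.11.

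Around Shc3, the genes next to it did not share its ratio. Only annotated genes that the libraries count were considered, and 16 of these start within 1 Mb of its start. Among them, the start nearest to that of Shc3 is 75.8 kb away, on the upstream side. Past the 3′ end of Shc3, the first of these starts is that of Gm32834, 150.7 kb from the Shc3 start. Of the 16 genes, 8 had at least 20 UMIs. Their ratios of knockout over control ran from 0.398 (Cks2, 21 UMIs) to 1.81 (Gm32834, 51 UMIs), against 46.8 for Shc3. Gadd45g, a growth arrest gene, had the only one of the 8 intervals that lay wholly above 1, at 1.67 (1.22 to 2.28).

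**Figure D5:**
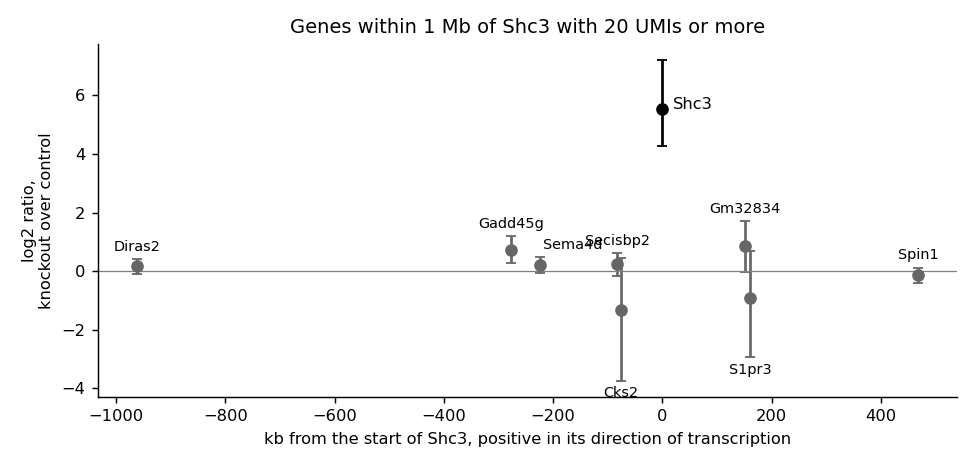
Log2 ratio of knockout over control (y axis) of Shc3 (black) and of the 8 genes with at least 20 UMIs whose start lies within 1 Mb (grey), against distance in kb from the start of Shc3 in its direction of transcription. Bars are exact 95% intervals of the ratio; the neighbours lie between ratios of 0.398 and 1.81 and Shc3 at 46.8.

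Promoter sequences, from 250 bases before to 50 after the start in RefSeq on GRCm38.p6, were searched for the octamers TGAATGAA and TGAATGGA, the letters that Cic is known to bind, on both strands. Shc1 (2 promoters), Shc2 (1) and Shc4 (1) were matched by symbol. Of these only Shc4 held a match, and it held 2, shown in capitals as the reverse complement within 30 bases.
Shc4, TGAATGGA at -25, chr2:125724155-125724184 (-): ctattctcggcTCCATTCAcagatttatta
Shc4, TGAATGAA at +30, chr2:125724101-125724130 (-): attcggcaaagTTCATTCAtaaaaatttca
Of 32851 promoters of the same length, 811 (2.47%) held at least 1 of the octamers and 44 (0.134%) at least 2. A match is a description of letters only. The promoter of Shc3 was not analysed here.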

How the data were processed

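Single-cell counts of 2 libraries (10x 3′) were used. The authors deposited raw UMI counts of every gene in every barcode, the output of Cell Ranger, with no normalization. The submitters' processing notes name Cell Ranger 8.0.1 and mm39, while the methods name mm10 and another version. Intron and strand settings are not given in the sources used here. Of the 32285 gene identifiers, 32158 (99.6%) were found in GENCODE M21 (GRCm38), which gave positions and coding sequences. Promoters came from RefSeq.

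Counts were summed per group of cells and given per 1000000 UMIs, leaving out mitochondrial and ribosomal genes (symbols beginning mt-, Rpl, Rps and Mrp). Python 3.11.15, scipy 1.17.1 and numpy 2.4.6 were used. Levels have Poisson, shares Clopper-Pearson and ratios exact conditional intervals at 95%, and a count of 0 was replaced by 3 in bounds. No test was made, since each genotype is 1 library. No doublet caller was run, and 19 control and 8 knockout cells of very high UMIs were left out in an alternative. Shares at 2000 UMIs per cell are hypergeometric expectations over all draws. One seeded draw had been planned, but single draws differed too much at these counts, and the expectation was chosen after seeing that.

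Named genes were the 4 members, genes of the pathway lists with at least 100 UMIs past 1.5-fold whose interval left out 1, Grb2, Sos1, Gab1, Ptpn11 and Fgfr1 whatever their value, and the 5 genes most like each member of at least 100 UMIs. The members and lists were chosen with earlier results of these data known. Interval coverage was checked on simulated Poisson counts of 21129 genes. The true ratio was held for 97.4% of 195 changed and 95.5% of 9233 unchanged genes. The intervals also assume Poisson counts, so this checks the calculation and not spread between cells or mice.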

Additional observations from a re-analysis of the deposited data

Results flagged for a closer look

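Shc3 had a signal in barcodes that the comparisons of cells did not use. In 75813 knockout droplets of 20 to 100 UMIs it had 34 UMIs, 11.2 CPM (7.75 to 15.6), and in 29040 control droplets 1 UMI, 0.459 CPM (0.0116 to 2.56). The ratio was 24.4 (4.09 to 991), and it rests on 1 control UMI. It was flagged because this interval lay above 1. The droplets come from the same 2 libraries as the cells, so the ratio is not independent of the contrast that chose the family and is a description.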

How the results depend on the processing

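No paired analysis was possible because each genotype is 1 library, and for the same reason no replicate could be left out. Of 148 alternative values of the 8 ratios (4 members, between libraries and by Etv), 145 stayed inside the main counting interval. Direction was followed only for ratios whose main interval left out 1, which were those of Shc3, and 0 of these values changed direction. These contrasts chose the family, so nothing is read from that. Among the others, Shc2 between libraries lay below 1 in 6 of 17 alternatives and Shc1 by Etv in 7 of 20, while Shc1 between libraries lay above 1 in all 17. The Shc3 ratio between libraries ran from 16.3, in female cells only with the control count of 0 set to 3, to 55.6. Its ratio by Etv ran from 3.32, where cells were split by Etv5 alone, to 11.6. In that split the group without Etv5 also held the cells with Etv4 but not Etv5, in which Shc3 was at 69.1 CPM. Shc1 by Etv was 3.08 in cells of at least 8000 UMIs, on 9 and 3 UMIs, a depth range added after seeing the data. With at least 1 UMI in each library in place of 100 in both, 10 of 61 pathway genes were higher and 2 lower, against 3 and 1 of 44, and at that setting 16.4% of all genes were higher and 9.04% lower. The cause of each of these shifts was not tested, and the split by Etv5 alone also changed the comparison group.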
